A study of Rattus norvegicus with 12 samples.

Results

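The genes for the proteins of the cytosolic ribosome were followed in primary rat atrial fibroblasts. They were taken by symbol, namely every name made of Rpl or Rps and a number, together with Rplp0, Rplp1, Rplp2 and Rpsa, without the Rps6k kinases, which the same letters would have taken in with 10 rows, and without symbols that hold -ps. This gave 102 of the 22850 features counted. By name, 44 are proteins of the large subunit, 29 are proteins of the small subunit, 28 are rows for paralogs or further copies such as Rpl22l1, and 1, Rps19bp1, encodes a protein that binds a ribosomal protein. The cells came from the atria of neonatal Sprague-Dawley rats 1 to 3 days old and were enriched by differential adhesion, without a sort. All cells received angiotensin II (AngII) at 1 μmol/L for 48 h in medium with 2% FBS, either alone or together with HNG at 10 μmol/L or MOTS-c at 5 μmol/L, each given from 1 h before AngII. HNG is the (Gly14) analogue of humanin, and humanin and MOTS-c are peptides encoded in mitochondrial DNA. Each treatment had 4 libraries, of which replicates 2 and 3 carry the same library name number, 3, in every treatment, so that n = 4 rests on the stated biological replicates. No cells without AngII were included, so the comparisons show what each peptide added to AngII and not what AngII itself did.

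Ribosomal proteins assemble with ribosomal RNA into a small subunit, which reads the mRNA, and a large subunit, which joins amino acids. Their genes are among the most highly transcribed of growing cells, and most of their mRNAs begin with a C and a run of pyrimidines, the 5′ terminal oligopyrimidine (TOP) tract, through which mTOR and LARP1 set how strongly they are translated. RNA-seq measures the amount of these mRNAs and not their translation.

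The TOP tract was sought at the start that RefSeq annotates for each gene in the rat assembly GRCr8. The tract was taken as a C at the first base followed by at least 4 further C or T. It was read only on the strand that matches the mRNA. It was found in 22 of 57 members of the 2 subunits that had 1 unambiguous entry, or 38.6%, against 2.6% of all 33469 promoters. A start for such a run within 5 bases of the annotated first base was found in 36 of the 57, or 63.2%, against 17.0% of all promoters. The mitochondrial ribosomal protein genes, whose products serve another ribosome, had the tract at the first base in 2 of 61 entries, and non-ribosomal genes listed as having TOP mRNAs had it in 0 of 19, with 7 of the 19 within 5 bases. An annotated start can lie some bases away from the start used in these cells, and the build of the deposited counts is not stated, so the windows describe RefSeq and not the libraries. Windows of 10 bases before and 20 bases from the annotated start are shown for the gene called in the comparisons below (Rpl34), for 3 abundant members with the tract (Rplp0, Rps3a and Rpl10), for 2 members without it (Rps6 and Rpl3), which 35 of the 57 lack, and for 2 members beside their paralogs, with capitals for the uninterrupted pyrimidine run that begins with a C at the first base.
Rpl34: tccttttcctCTTCCggggacggtgcttag
Rplp0: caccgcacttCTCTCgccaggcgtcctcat
Rps3a: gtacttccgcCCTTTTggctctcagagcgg
Rpl10: gtgggagcgtCTCTTTTCCTCTggcgcggt
Rps6: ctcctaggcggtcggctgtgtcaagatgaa
Rpl3: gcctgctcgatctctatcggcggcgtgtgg
Rps27: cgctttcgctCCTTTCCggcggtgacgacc
Rps27l: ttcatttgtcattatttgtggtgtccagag
Rpl22: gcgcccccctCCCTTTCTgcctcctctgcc
Rpl22l1: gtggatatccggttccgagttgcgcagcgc
In GRCr8 these windows lie at chr2:221962264-221962293 on the minus strand (Rpl34), chr12:46718371-46718400 minus (Rplp0), chr2:173827023-173827052 minus (Rps3a), chrX:157205840-157205869 plus (Rpl10), chr5:106420521-106420550 minus (Rps6), chr7:113507971-113508000 minus (Rpl3), chr2:177964587-177964616 minus (Rps27), chr8:76443648-76443677 plus (Rps27l), chr5:168117951-168117980 plus (Rpl22) and chr2:113683186-113683215 plus (Rpl22l1). The run covers 5 bases in Rpl34 and 12 in Rpl10, and Rps6, Rpl3 and the paralogs Rps27l and Rpl22l1 have no C at the annotated first base.

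All 73 members of the 2 subunits passed the filter on low counts in all comparisons, as did 21 of the 28 rows of paralogs or copies. Levels between genes were compared as FPKM, in which counts are divided by transcript length and library total, as the authors deposited them. The median of the 73 was 704 FPKM over the 12 libraries, against 7.17 FPKM for all features with enough counts for a test, and 48 of the 73 exceeded 500 FPKM. Of the 112 features above 500 FPKM, 50 were members. Large subunit genes had a median of 654 FPKM and small subunit genes of 779 FPKM.

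The highest member was Rplp0, the stalk protein that is often used as a reference gene, with 1762, 1926 and 2000 FPKM as the lowest, median and highest library. Rps6, the small subunit protein phosphorylated by the S6 kinases, followed with 1505, 1698 and 2060 FPKM, and Rps3a with 1344, 1496 and 1670 FPKM. The ranges of neighbours in this order overlapped, so the order of single neighbours is not fixed by the libraries. At the lower end of the 2 subunits stood Rpl37 with 21.0, 26.6 and 32.8 FPKM and Rpl38 with 29.3, 44.0 and 52.9 FPKM, and Rplp0 was 73.1 times as high as Rpl37 on the mean. RefSeq also gives Rpl37 as an older name of another gene, Rpl37l1, and ribosomal protein genes have many near-identical copies among which the counting could split reads, so the levels of single members are uncertain. The lowest members tested were rows of copies, Rps19l1 with 0.621, Rps12l3 with 0.926 and Rpl31l2 with 1.42 FPKM on the mean. Rpl34l1 had 0 counts in all libraries and Rps15al1 at most 1 count. No rows named Rps9, Rps19, Rpl35a or Rpl37a were used here, and rows named Rps9l1 and Rps19l2 stood at 549 and 694 FPKM, close to the median of the subunit genes. RefSeq gives names of this kind both as symbols of their own and as older names, so whether Rps9l1, Rps19l2 and Rpl35al1 are copies or the main genes could not be settled, and they are counted here as rows of copies by name.

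**Figure D1:**
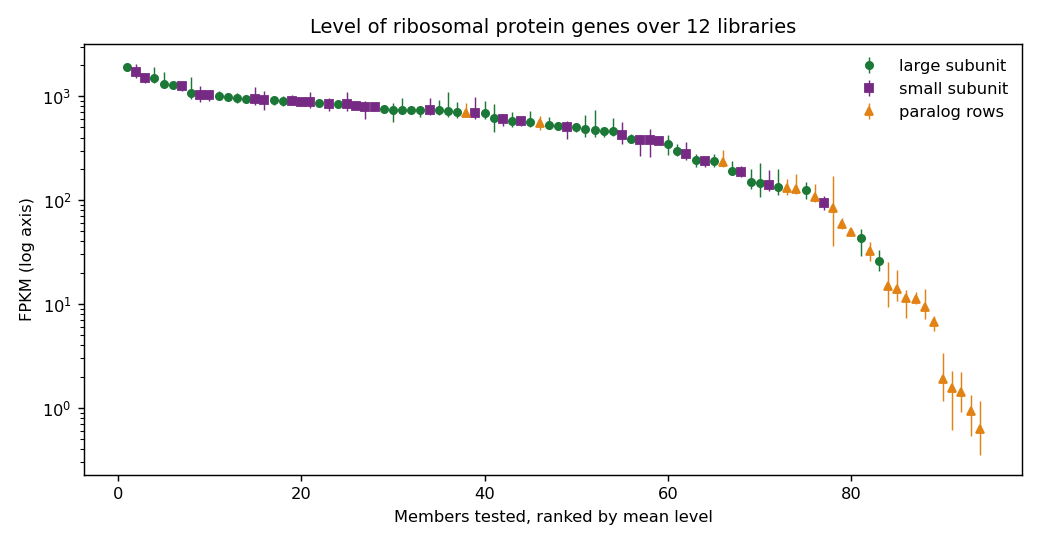
Mean FPKM over 12 libraries (log axis) of the members tested other than Rps19bp1, ranked from the highest to the lowest, with bars from the lowest to the highest library. Green circles are large subunit genes, purple squares small subunit genes and orange triangles rows of paralogs or copies. Below 90 FPKM, Rpl38 and Rpl37 are the subunit genes plotted, among paralog rows.

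Libraries held 27960586 to 38322354 counts, where 3 counts correspond to 0.0783 to 0.107 CPM of the unscaled total, a lower limit for counting error alone. The other CPM values (counts relative to the library total) are scaled by TMM. Fibroblast markers were high, with Col1a1 at 4234 and Col3a1 at 4119 FPKM on the mean, but cardiomyocyte markers were high as well, with Nppa at 2446 and Tnnt2 at 749 FPKM. None of the 61 markers of 6 cell types was at or under 3 counts in all libraries. The 12 macrophage markers summed to 274 to 332 CPM with AngII, 369 to 483 CPM with AngII+HNG and 270 to 328 CPM with AngII+MOTS-c, and 4 of them (Lyz2, Cd68, Mrc1 and Ptprc) were called higher with HNG, while Adgre1, C1qc and C1qb stood at -0.36, -0.43 and -0.05 on the log2 scale, not called. The 8 smooth muscle and pericyte markers summed to 6988 to 7303, 5489 to 6060 and 6656 to 7246 CPM, with 5 called lower with HNG (Cnn1, Notch3, Acta2, Myh11 and Tagln). Cardiomyocyte marker sums overlapped between the groups (7668 to 8654, 7903 to 9250 and 7021 to 9159 CPM), as did those of fibroblasts (73813 to 77709, 72140 to 79723 and 73611 to 77756 CPM) and Schwann cells (15.8 to 18.7, 17.4 to 18.7 and 17.2 to 20.2 CPM), while endothelial sums were 73.5 to 82.7, 91.6 to 101 and 76.1 to 83.8 CPM, with 3 markers (Tek, Kdr and Egfl7) called higher with HNG and Erg and Emcn at -0.30 and -0.19, not called. Of the cardiomyocyte markers Tnni3, and of the fibroblast markers Tcf21 and Thy1, were called higher with HNG, against AngII and against AngII+MOTS-c. With HNG against AngII, 3 of 12 cardiomyocyte and 3 of 12 fibroblast markers were lower, with 0 called. Among these were Myh7 (680 against 756 CPM) and Col1a1 (25301 against 26061 CPM). At an unadjusted p below 0.05, 1 cardiomyocyte and 0 fibroblast markers were lower. The part of these cells in the results below was not tested, and fewer cells of a type cannot be told apart from less RNA per cell.

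The members' summed share of a library's counts lay between 3.62% and 4.52%. With AngII alone the share was 3.72%, 3.98%, 3.95% and 3.73% in replicates 1 to 4. With AngII+HNG it was 3.97%, 3.97%, 4.52% and 3.81%, and with AngII+MOTS-c 3.83%, 3.62%, 3.87% and 3.77%. The groups overlapped, and the 1 library that stood apart was AngII+HNG replicate 3. The group means were 3.85% ± 0.139 for AngII, 4.07% ± 0.311 for AngII+HNG and 3.77% ± 0.110 for AngII+MOTS-c (SD, n = 4 each), and AngII+HNG without replicate 3 had 3.92% ± 0.0924 (SD, n = 3).

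The same library carried the highest value of 66 of the 95 members tested. Relative to the mean of the AngII libraries, the median member stood 0.21 higher in it on the log2 scale, with quartiles of 0.10 and 0.38. The other AngII+HNG libraries were at 0.03, 0.03 and -0.06, the AngII libraries themselves at -0.04, 0.06, 0.03 and -0.04, and the AngII+MOTS-c libraries at -0.04, -0.10, 0.02 and -0.06 for replicates 1 to 4. Most members are short transcripts: the 73 subunit genes had a median length of 633 bases, as implied by the ratio of counts to FPKM, against 2862 bases for all features with enough counts. The 999 other genes under 1000 bases stood close to the members in AngII+HNG replicate 3, with a median of 0.20. In the other 11 libraries their medians were -0.04 to 0.05 and could differ from the members. They were at -0.04 against -0.10 for members in AngII+MOTS-c replicate 2, and at -0.01 against 0.03 in AngII+HNG replicate 1. The 6960 other genes of 3000 bases or more stood at -0.06 in AngII+HNG replicate 3. Mitochondrial ribosomal protein genes were at 0.07 in that library. The part of transcript length in the members' differences was not tested apart from the length correction given with each comparison.

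The spread of the members within groups ranged widely. The SD of log2 CPM within groups had a median of 0.129 over the 95 members and of 0.106 over all 14686 features with enough counts, but of 0.063 over the 545 other genes of 100 FPKM or more. Rpl10, Rpl8, Rplp0 and Rps4x had the smallest spread, at 0.0303, 0.0381, 0.0403 and 0.0444. Rpl35al1, Rps15al4 and Rpl39l had the largest, at 0.726, 0.513 and 0.466, and among the subunit genes Rps13 at 0.261.

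**Figure D2:**
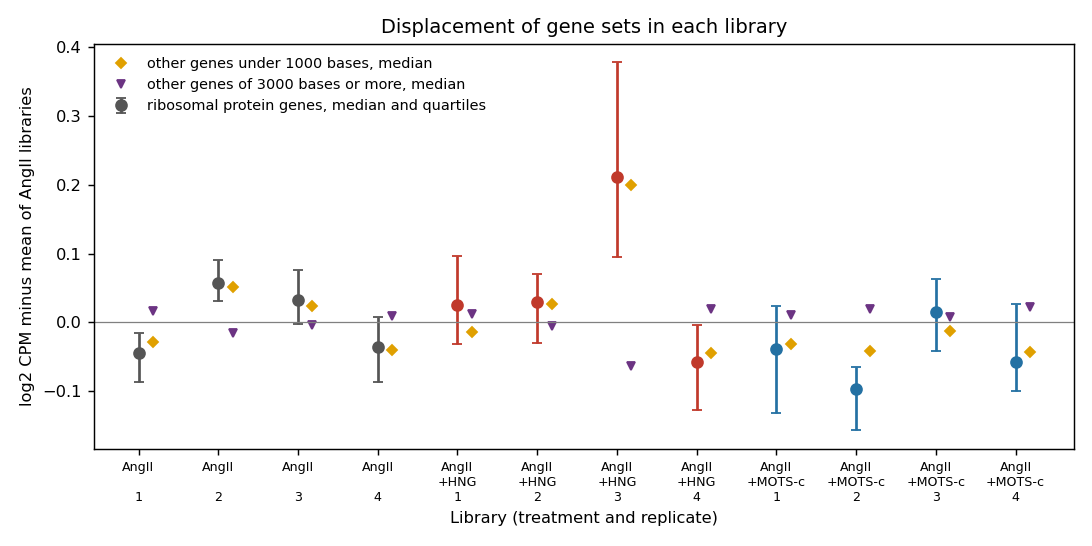
Each circle is the median log2 CPM of 95 ribosomal protein genes in a library minus the mean of the AngII libraries, with bars for the quartiles. Diamonds are the median of 999 other genes under 1000 bases and triangles that of 6960 other genes of 3000 bases or more. AngII+HNG replicate 3 is at 0.21 for the members and 0.20 for the other short genes.

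With HNG the question was whether the peptide altered these mRNAs in AngII-treated fibroblasts. None of the 95 members tested was called, while 5.98% of all 14524 features were (edgeR quasi-likelihood test, Benjamini-Hochberg adjusted over all features, threshold 0.05). At an unadjusted p below 0.05, 6 members were higher, where the share of all features was 11.1%, and 1 was lower, where it was 9.16%. DESeq2 called 1 member, Rpl3, and limma on FPKM called 0. The median log2 fold change of the members was 0.06 against 0.004 for all features, and 73 of 95 were higher. By subunit, 36 of 44 large subunit genes and 23 of 29 small subunit genes were higher, with medians of 0.08 and 0.05. Without AngII+HNG replicate 3 the median of the 95 members was 0.002 with 49 higher. The median was 0.04 without AngII replicate 1 and 0.11 without AngII+HNG replicate 4. After a correction for transcript length it was -0.002, against -0.02 for all features. Both without AngII+HNG replicate 3 and after the length correction, 1 member was higher and 3 were lower at an unadjusted p below 0.05. Of all features, 1588 were higher and 1389 lower of 14647 without that library, and 1388 higher and 1930 lower of 14524 after the correction.

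Rpl3, a large subunit protein near the peptidyl transferase centre, came closest to a call. It had 1315, 1374, 1352 and 1334 CPM with AngII and 1436, 1464, 1570 and 1432 CPM with AngII+HNG. Every AngII+HNG library was above every AngII library, which held for 2 members (Rpl3 and Rpl8) and for 7.03% of all features, whereas 0 members had all AngII+HNG libraries below, against 6.55% of all features. The log2 fold change of Rpl3 was 0.14 ± 0.04 (SE, n = 4 per group, edgeR adjusted p = 0.059), and its adjusted p ranged from 0.00947 to 0.234 over 21 alternatives. Rpl8 had 638, 651, 648 and 639 CPM with AngII and 664, 696, 709 and 655 CPM with AngII+HNG, a difference of 0.08 ± 0.04 on the log2 scale (SE, edgeR adjusted p = 0.23).

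Among members with a mean of at least 1 CPM, the largest differences with HNG belonged to members with large spread. Upward these were Rpl31l4 at 0.27 ± 0.19, Rpl36a at 0.20 ± 0.12 and Rps27a, which is made as a fusion with ubiquitin, at 0.20 ± 0.12 (log2 fold change ± SE). Downward these were Rpl35al1, whose identity is uncertain as said above, at -0.64 ± 0.40, Rps15al4 at -0.23 ± 0.23 and Rpl5l1 at -0.19 ± 0.14. None was called, and the groups overlapped in each. Without AngII+HNG replicate 3, Rpl31l4 was at 0.13, Rpl36a at 0.03, Rps27a at 0.25, Rps15al4 at -0.31 and Rpl5l1 at -0.06. Rpl35al1 had 34.6, 90.5, 49.7 and 41.7 CPM with AngII and 17.6, 19.8, 72.4 and 28.1 CPM with AngII+HNG. Its AngII mean leaned on replicate 2, with 90.5 CPM, and the difference without that library is not given here. Without AngII+HNG replicate 3, Rpl35al1 was lower at -1.30 (edgeR adjusted p = 0.0148). Without AngII+HNG replicate 4, Rps26 was higher at 0.22 (edgeR adjusted p = 0.0347).

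None of the 16 reference members tested was called with HNG, and 1 of them, Rpl10, was higher at an unadjusted p below 0.05. Among those often used to normalize PCR, Rplp0 differed by 0.02 on the log2 scale (95% interval -0.05 to 0.09), Rpl13a by 0.09 (-0.06 to 0.25), Rps18 by 0.15 (-0.03 to 0.32), Rpl32 by 0.11 (-0.07 to 0.29) and Rpl19 by 0.05 (-0.07 to 0.16). AngII+HNG replicate 3 was the highest of its group for Rpl13a (1515 CPM, against 1161 to 1233 CPM in the other 3 and 1122 to 1250 CPM with AngII), Rps18 (540 CPM, against 398 to 439 and 383 to 433 CPM) and Rpl32 (502 CPM, against 367 to 394 and 369 to 412 CPM). Rpl5 and Rpl11, which bind MDM2 when ribosome assembly fails, differed by -0.02 (-0.11 to 0.07) and 0.14 (-0.06 to 0.33). The stalk proteins Rplp1 and Rplp2 were at 0.13 (-0.04 to 0.31) and -0.04 (-0.15 to 0.06). The same library was the highest for Rpl11 (442 CPM, against 299 to 350 CPM in the other 3) and Rplp1 (879 CPM, against 641 to 697 CPM). Rps6, Rpsa, Rps3, Rpl10 and Rpl38 were at 0.10, 0.08, 0.01, 0.08 and -0.01, and Rpl10 was the member with the least spread within groups, with an SD of 0.03 on the log2 scale. Rps3, a small subunit protein at the mRNA entry, shows the weight of the single library: it had 731, 732 and 696 CPM in AngII+HNG replicates 1, 2 and 4 and 1049 CPM in replicate 3, against 737 to 840 CPM with AngII.

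With MOTS-c, most members had lower means than with AngII, and none was called. Of 95 members 0 passed the test (edgeR, adjusted over all 14488 features, of which 0.0069% were called), and DESeq2 and limma on FPKM called 0 as well. At an unadjusted p below 0.05, 12 members were lower, against 2.61% of all features, and 0 were higher, against 2.44%. The median was -0.05 on the log2 scale against -0.001 for all features, and 77 of 95 members were lower, among them 36 of 44 large subunit and 25 of 29 small subunit genes. The other genes under 1000 bases had a median of -0.04, with 634 of 985 lower and 63 at an unadjusted p below 0.05. After the length correction the members' median was -0.02, with 56 of 95 lower, against 0.0025 for all features and -0.0031 for the other short genes. In that fit 1 member was higher and 5 were lower at an unadjusted p below 0.05, beside 344 and 286 of all 14488 features. Without single libraries the members' median ranged from -0.07 to -0.03. The AngII libraries are the same as in the comparison of HNG, so the sets of differences are not independent of each other.

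Rpl34 had the smallest p of the members. Its AngII libraries had 178, 200, 190 and 178 CPM and its AngII+MOTS-c libraries 166, 166, 174 and 163 CPM, without overlap. The log2 fold change was -0.16 ± 0.04 (SE, n = 4 per group, edgeR adjusted p = 0.924). Rpl41, the smallest protein of the ribosome, had 319, 351, 346 and 330 CPM with AngII and 289, 298, 317 and 316 CPM with AngII+MOTS-c, a difference of -0.14 ± 0.04 (SE, edgeR adjusted p = 0.924). Groups did not overlap for 4 members, all lower (Rpl34, Rpl41, Rpl22l1 and Rpl15), against 1.7% of all features lower and 1.75% higher.

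By size, among members with a mean of at least 1 CPM, the lowest with MOTS-c were Rpl35al1 at -0.76 ± 0.29, Rps15al4 at -0.18 ± 0.31 and Rps24 at -0.16 ± 0.07 (log2 fold change ± SE). Rpl35al1 had 34.6, 90.5, 49.7 and 41.7 CPM with AngII and 35.8, 16.1, 35.7 and 40.5 CPM with AngII+MOTS-c. Its AngII mean leaned on replicate 2. Rps15al4 turned sign without AngII replicate 4, as given below. Rps24 had 461 to 491 CPM with AngII and 455, 426, 348 and 464 CPM with AngII+MOTS-c, so that replicate 3 was the lowest. The differences of Rpl35al1 and Rps24 without these libraries are not given here. Above the same limit the highest were Rpl7 at 0.07 ± 0.05, Rps3a at 0.07 ± 0.04 and Rps26 at 0.06 ± 0.06. Among the reference genes, Rplp0 differed by -0.07 (95% interval -0.14 to 0.01), Rpl13a by -0.03 (-0.12 to 0.06), Rps18 by -0.03 (-0.12 to 0.06), Rpl32 by -0.01 (-0.11 to 0.08) and Rpl19 by 0.01 (-0.08 to 0.10).

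Set directly against each other, AngII+HNG exceeded AngII+MOTS-c in 86 of 95 members, with a median log2 difference of 0.11 against 0.002 for all features. The doses of the peptides differed, and this comparison shares its libraries with the preceding ones. It called 1 member, Rpl34, where 4.41% of all 14448 features were called (edgeR quasi-likelihood test, adjusted over all features). At an unadjusted p below 0.05, 18 members were higher with AngII+HNG, against 10.4% of all features, and 0 were lower, against 8.89%. Large subunit genes were higher in 42 of 44 cases and small subunit genes in 27 of 29, with medians of 0.11 and 0.10. The other genes under 1000 bases had a median of 0.08 with 704 of 979 higher. After the length correction the members' median was 0.02 with 61 of 95 higher. Beside it, all features had a median of -0.02 and the other short genes of -0.01 in that fit. There 0 members were called, and 1 was higher and 3 were lower at an unadjusted p below 0.05. All 14448 features had 1216 higher and 1845 lower at that p and 388 called in each direction. Without AngII+HNG replicate 3 the members' median was 0.05, with 68 of 95 higher, 0 called, and 7 higher and 3 lower at that p, where all 14596 features had 1422 higher and 1287 lower, with 377 and 248 called.

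Rpl34 encodes a large subunit protein, and its start carries the tract shown above. It had 197, 191, 210 and 174 CPM with AngII+HNG against 166, 166, 174 and 163 CPM with AngII+MOTS-c. The lowest AngII+HNG library and the highest AngII+MOTS-c library both round to 174 CPM, and the groups met there without overlapping. The log2 difference was 0.21 ± 0.05 (SE, n = 4 per group, edgeR adjusted p = 0.0435). Its adjusted p ranged from 0.00571 to 0.187 over 21 alternatives and was below 0.05 in 8. The log2 difference ranged from 0.10 to 0.26 over them. Rpl34 was called with the replicate block, but not with the library name block or with replicates 2 and 3 summed. The call was lost when any library other than AngII+HNG replicate 4 was left out, with log2 differences of 0.16 to 0.22, and without AngII+HNG replicate 4 it was 0.26 (edgeR adjusted p = 0.0115), when Rps27l was called too. Against AngII alone, Rpl34 was at 0.06 ± 0.06 with HNG and -0.16 ± 0.04 with MOTS-c. The FPKM of Rpl34 was less steady than its counts, because the length implied by the deposited values varied between libraries from 503 to 654 bases.

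Besides Rpl34, groups did not overlap for Rpl3, Rpl8, Rps4x and Rpl10, all higher with AngII+HNG, where 6.44% of all features did so and 6.07% in the opposite direction. Rps4x, the X-linked small subunit gene, had 909, 908, 900 and 915 CPM with AngII+HNG and 893, 797, 870 and 838 CPM with AngII+MOTS-c, a log2 difference of 0.10 ± 0.04 (SE, edgeR adjusted p = 0.233). By size, among members with a mean of at least 1 CPM, the leading ones were Rpl31l4 at 0.30 ± 0.18, Rps27a at 0.24 ± 0.08 and Rpl27 at 0.24 ± 0.14, and the lowest were Rpl5l1 at -0.24 ± 0.15, Rps12l2 at -0.19 ± 0.18 and Rps3a at -0.07 ± 0.06 (log2 difference ± SE). Rpl27 had 351 CPM in AngII+HNG replicate 3 and 195 to 228 CPM in the other 3, and without replicate 3 its difference was 0.02, that of Rpl31l4 0.16, of Rps27a 0.29, of Rpl5l1 -0.10, of Rps12l2 -0.15 and of Rps3a -0.13. Rps27a, with 499, 411, 385 and 436 CPM with AngII+HNG, had its highest value in replicate 1 and its lowest in replicate 3. All 16 reference members were higher with AngII+HNG, by 0.01 to 0.24. The 22 members with the tract at the annotated start had medians of 0.08 with HNG, -0.04 with MOTS-c and 0.10 between the peptides, and the 35 without it had 0.05, -0.04 and 0.10, differences that were not tested.

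**Figure D3:**
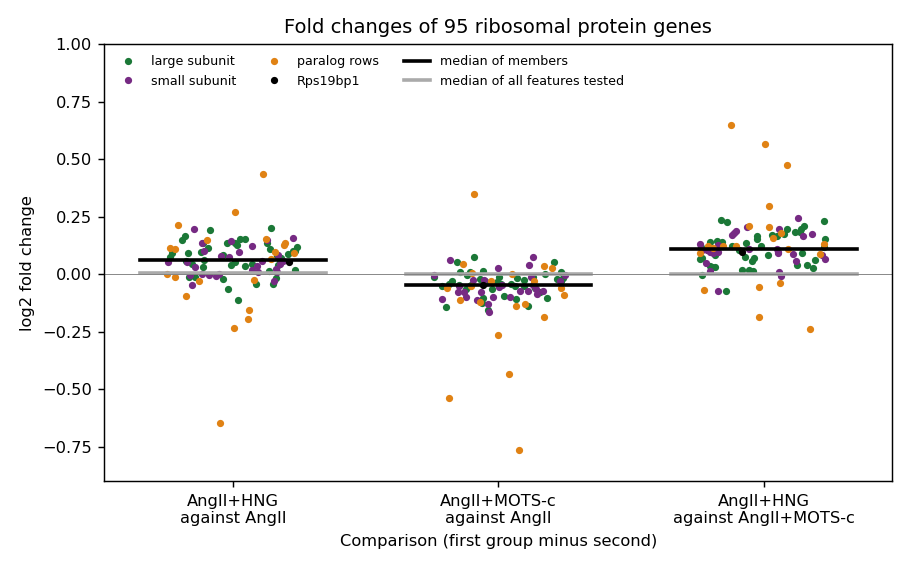
Log2 fold change of 95 ribosomal protein genes in 3 comparisons, first group minus second, by class. Black lines are the median of the members (0.06, -0.05 and 0.11) and grey lines that of all features tested (0.004, -0.001 and 0.002).

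**Figure D4:**
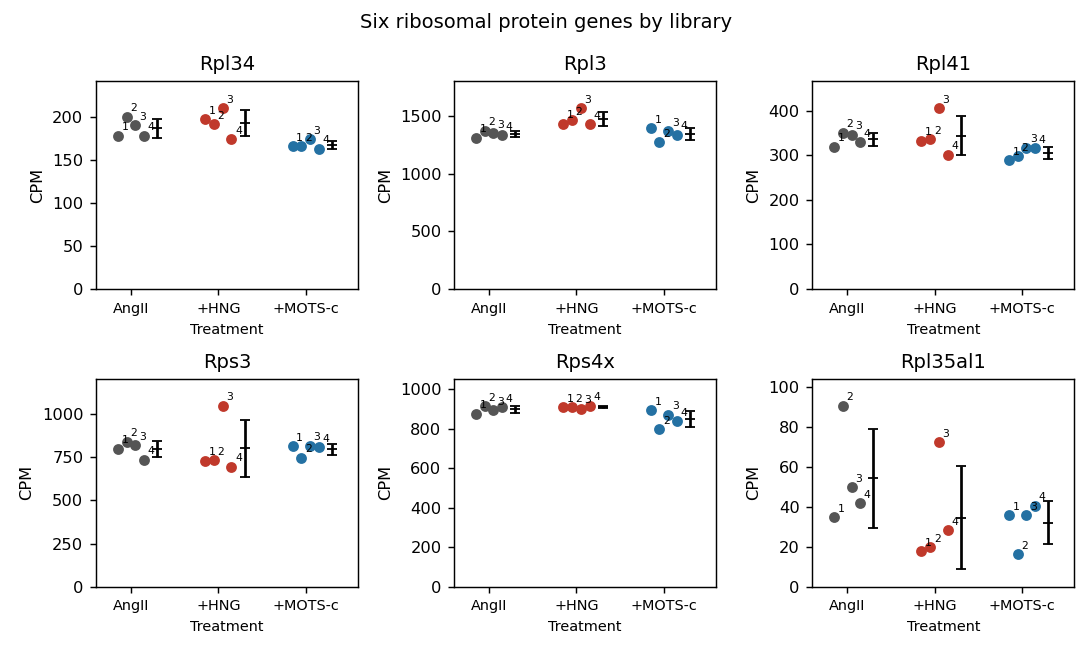
CPM of 6 members by treatment, with 1 point per library labelled by replicate number and the mean ± SD of 4 libraries at the right of each group. AngII+HNG replicate 3 has the highest value of the AngII+HNG libraries in 5 of the 6 panels, Rps4x being the exception.

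Paralogs differed in how much they added to their partner gene. Rpl22l1 reached 57.6% ± 3.41 of the FPKM of Rpl22 with AngII and 55.2% ± 4.99 with AngII+HNG (SD, n = 4 each), and 55.3% over the 12 libraries. Every AngII+MOTS-c library had a lower ratio than every AngII library, and Rpl22l1 itself had no overlap between these groups either, with 78.1, 85.3, 81.3 and 79.0 CPM against 71.2, 71.0, 76.3 and 76.0 CPM. Rps27l, which is also known as a p53 target, reached 31.4% ± 3.33 with AngII, 32.2% ± 1.71 with AngII+HNG and 30.8% ± 2.81 with AngII+MOTS-c of Rps27 (SD, n = 4 each). Rpl36al stood at 82.1% ± 4.29, 79.0% ± 6.63 and 82.2% ± 5.67 of Rpl36a, and Rpl7l1 at 5.85% ± 0.287, 5.06% ± 0.456 and 5.47% ± 0.613 of Rpl7. In the pairs of Rps27l, Rpl36al and Rpl7l1 the groups overlapped, and no ratio was tested. Lower still were Rpl39l at 1.25%, Rpl10l at 0.881% and Rps4y2 at 0.759% of their partners over the 12 libraries. Rpl3l, the striated muscle form of Rpl3, had at most 3 counts in any library, although the cardiomyocyte markers named above were present. Reads of near-identical copies could have been shared between the rows of a pair. No row named Rpl26l1 was used here.

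The wider machinery of protein synthesis was compared by fixed lists. Of 25 non-ribosomal genes with TOP mRNAs tested, Eif4b was called higher with HNG, and the median of the 25 was 0.07, with 20 higher. At an unadjusted p below 0.05, 8 were higher and 0 lower. After the length correction the median was 0.01, with 13 higher, Eif4b called, and 3 higher and 3 lower at that p. Without AngII+HNG replicate 3, 20 were higher and 3 were called (Eif4b, Eef2 and Npm1). Eif4b, a cofactor of the helicase eIF4A, had 450 CPM with AngII+HNG and 395 CPM with AngII, a log2 fold change of 0.19 ± 0.04 (SE, edgeR adjusted p = 0.0221). Fau and Rack1, whose proteins also sit in the ribosome, were at 0.05 and 0.004 with HNG and not called. Among the 34 initiation factors tested Eif4b was again the single call, the median of that list was -0.03 and 21 were lower. At an unadjusted p below 0.05, 5 were higher and 6 lower.

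Of 12 elongation and termination factors, 1 was called higher and 1 lower with HNG. At an unadjusted p below 0.05, 4 were higher and 3 lower. Eef2k, the kinase that inhibits elongation factor 2, had 70.5 CPM with AngII+HNG and 58.2 CPM with AngII, a log2 fold change of 0.28 ± 0.05 (SE, edgeR adjusted p = 0.00583). Gspt1, the release factor eRF3a, had 236 against 274 CPM, at -0.22 ± 0.05 (SE, edgeR adjusted p = 0.014). Both were also called between the peptides, at 0.28 and -0.21. With MOTS-c against AngII no gene of these 3 lists was called by edgeR, and at an unadjusted p below 0.05 the TOP list had 2 lower (Rack1 and Tpt1), the initiation list 1 lower (Eif1) and the elongation list 0.

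The 59 ribosome biogenesis factors tested had a median of -0.05 with HNG, with 46 lower. At an unadjusted p below 0.05, 1 was higher and 3 were lower, against 11.1% and 9.16% of all features. Wdr75, a factor of small subunit assembly, had 60.7 CPM with AngII+HNG and 68.4 CPM with AngII and was called lower, at -0.17 ± 0.04 (SE, edgeR adjusted p = 0.025), and Mdn1, which releases factors from the large subunit precursor, was lower with AngII+HNG than with AngII+MOTS-c at -0.20 ± 0.04 (SE, edgeR adjusted p = 0.0137). None of 16 genes of RNA polymerase I and its cofactors and none of 19 regulators of TOP mRNAs, among them Larp1 and Mtor, was called by edgeR in any comparison. At an unadjusted p below 0.05, 4 of the polymerase I genes (1 higher, 3 lower) and 3 of the regulators (all higher) differed with HNG. With MOTS-c the counts were 0 and 2 (Tia1 and Tsc1, both higher), and between the peptides 0 and 0.

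Among 19 p53 target genes tested, 1 of which is the member Rps27l, Eda2r was higher with HNG at 0.35 ± 0.06 (SE, edgeR adjusted p = 0.00408) and Plk2 was lower at -0.21 ± 0.04 (SE, edgeR adjusted p = 0.0115). Rps27l itself was at 0.09 ± 0.06 and not called. The mitochondrial ribosomal protein genes, encoded in the nucleus for the ribosome of mitochondria, had 74 members tested and 0 called by edgeR in the 3 comparisons. At an unadjusted p below 0.05, 3 were higher and 3 lower with HNG, 0 higher and 2 lower with MOTS-c, and 7 higher and 1 lower between the peptides. Their medians were 0.01 with HNG, -0.04 with MOTS-c and 0.04 between the peptides, beside 0.06, -0.05 and 0.11 for the cytosolic genes. After the length correction the mitochondrial medians were -0.03 with HNG, where Mrps14 was called lower, -0.02 with MOTS-c and -0.02 between the peptides, where 0 were higher and 7 lower at an unadjusted p below 0.05. Without AngII+HNG replicate 3 the median with HNG was -0.02. No rows for the 13 small nucleolar RNA host genes listed were used here.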

How the data were processed

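The authors prepared mRNA libraries from primary rat atrial fibroblasts, used DNBSEQ paired-end sequencing, and deposited whole-number read counts per gene, not normalized, and FPKM values of the same genes, which divide the counts by length and library total. Per the labels' processing notes, HISAT2, Picard 1.41 and SAMtools 0.1.18 were named. How reads were counted, whether by strand, and against which build is not given in the sources used here. Groups, doses and replicate numbers were taken from the labels and the paper's methods, which state 4 biological replicates per group.

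In R 4.3.3, counts were filtered with filterByExpr, scaled by TMM and tested with glmQLFit and glmQLFTest of edgeR 4.0.16 on the 8 libraries of each of 3 comparisons, with Benjamini-Hochberg adjustment over all features tested and a threshold of 0.05. Of 102 members, 95 passed the filter, and the other 7 are rows of copies with at most 6 counts in any library. A filter of this kind keeps members by their level over the libraries of a comparison. Standard errors came from the F statistic, and 95% intervals from the t distribution with the degrees of freedom of the fit. CPM uses TMM factors over the 12 libraries, and log2 CPM a prior count of 2. Gene length was taken from counts and FPKM, and a loess fit (span 0.5) served for the length correction. The members and lists were chosen with earlier results of these data known. Members are named if called, if among the 3 largest changes in a direction with at least 1 CPM, if among the 3 highest or lowest by FPKM, or if in the reference or paralog lists; of other lists, the called genes. Rps9l1, Rps19l2, Rpl37, Rpl15, Rpl8, Rps13, Rpl23a, Adgre1, C1qb, C1qc, Erg, Emcn, Myh7, Fau, Rack1, Tpt1, Eif1, Eef2, Npm1, Mrps14, Tia1, Tsc1, Larp1 and Mtor were named after their values were seen. Promoter sequences are from RefSeq (GRCr8), and matched by symbol with 1 entry for 57 of 73 subunit genes. Alternatives were DESeq2 1.42.0, limma 3.58.1 on log2(FPKM + 1) or log2(FPKM + 0.1), RLE size factors, TMM without the members, other filters, all 12 libraries, blocks, length correction and the omission of each library. Scripts were first tested with simulated data.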

Additional observations from a re-analysis of the deposited data

Results flagged for a closer look

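A library far from the other 3 of its group was sought for the named members and the members' summed share, in 135 groups of 4, of which 9 were flagged by Dixon's criterion; chance flags about 5% of groups. High single values were those of Rps3 in AngII+HNG replicate 3 (1049 CPM, against 696 to 732), Rpl31l4 in AngII replicate 3 (5.38 CPM, against 3.65 to 3.77), and Rps12l3 (0.582 CPM, against 0.316 to 0.346) and Rps15al4 (13.2 CPM, against 4.82 to 6.07) in AngII+MOTS-c replicate 4. Low single values were those of Rpl26 in AngII replicate 1 (533 CPM, against 569 to 573), Rps26 in AngII+HNG replicate 4 (251 CPM, against 304 to 306), and Rpl31l2 (0.453 CPM, against 0.631 to 0.666), Rps3 (749 CPM, against 808 to 817) and Rps6 (1258 CPM, against 1425 to 1438) in AngII+MOTS-c replicate 2. The summed share of AngII+HNG replicate 3, 4.52%, did not pass the criterion.

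Rpl34 differed between the peptides in the direct test, by 0.21 on the log2 scale (edgeR adjusted p = 0.0435), as reported above with the libraries it depends on.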

How the results depend on the processing

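Members called with HNG numbered 0, and 1 with the replicate block (Rpl3), 1 with the library name block (Rpl3), 1 with DESeq2, 1 with all 12 libraries, 1 with the replicate block and length correction together (Rpl23a, lower), and 0 to 1 when single libraries were left out. With MOTS-c the count was 0 in every setting tried, blocks included. Between the peptides 1 member was called, against 5 with the replicate block (Rpl34 among them) and 0 with the library name block. The count was 0 with the length correction and 1 with block and length correction (Rps3a, lower). It was 0 with replicates 2 and 3 summed and 0 with limma on FPKM at both pseudocounts. It was 2 with DESeq2, 2 with all 12 libraries, and 0 to 2 without single libraries. For blocks, DESeq2, limma, all 12 libraries, summed replicates and omissions other than AngII+HNG replicate 3, the share of all features called is not given. Those counts of members called, here and above, were not set against it. The library name block uses the library name numbers, which replicates 2 and 3 share. Replicate 1 has number 1 with AngII and AngII+HNG but number 2 with AngII+MOTS-c. In the MOTS-c and peptide comparisons each replicate 1 thus stood alone in its block and added nothing to the tested difference. Summing replicates 2 and 3 treats them as 1 sample. The replicate numbers were not taken as pairs, since nothing in the labels says so and not every pair passed 0.1: deviations of same-numbered libraries correlated at -0.03 to 0.12 for HNG, 0.02 to 0.13 for MOTS-c and -0.01 to 0.25 between the peptides, where 3 of 4 pairs passed 0.1. The members' median between the peptides moved from 0.108 to 0.0169 with the length correction and 0.0162 with the block added. That of all features moved from 0.0023 to -0.0213 with the length correction. The cause was not tested. Of 95 members, 26 changed sign with HNG under the length correction and 26 without AngII+HNG replicate 3, and Rpl34 with HNG ranged from -0.01 to 0.19 over its alternatives. Among the members called or with the largest changes, in the comparison that named them, signs turned without 1 library for Rps15al4 without AngII replicate 4 (0.0477 with HNG, where leaving out single libraries gave -0.4038 to 0.0477, and 0.0991 with MOTS-c, within -0.6007 to 0.0991) and Rps12l2 between the peptides without AngII+MOTS-c replicate 3 (0.0429, within -0.3065 to 0.0429). Depth limits the rows of copies, 4 of which (Rpl39l, Rpl31l2, Rps12l3 and Rps19l1) had at most 39 counts in any library.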
